A study of Homo sapiens with 32 samples.

Results

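Human miRNAs named from mir-1001 to mir-1999 were measured in 293T cells that differed in the DGCR8 protein and in the level of its partner ERH. The members were chosen by name and selected on measured abundance: a mean of at least 10 counts over the 32 libraries, leaving out mir-1179, mir-1185, mir-1193, mir-1197, mir-1226, mir-1286 and mir-1306. This gave 47 of the 1513 miRNA rows, out of 125 rows with such a name. The members just above the minimum were mir-1343 at 10.3, mir-1910 at 11.3 and mir-1258 at 11.7 mean counts. The rows just below it were mir-1914 at 6.78, mir-1302 at 6.38 and mir-1288 at 6.12. Their level is therefore a description and no test is given on it. The numbers follow the order in which miRNAs entered the catalogue and are not a family by sequence.

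293T cells are an established human line of kidney origin, labelled as epithelial-like, with the SV40 large T antigen. The study used 8 clones of it, 4 of them WT and 4 of the genotype DGCR8 delta103-126Q, whose prime-edited DGCR8 lacks the segment reported to bind ERH. Separate cultures of every clone received 1 of 4 shRNA vectors, of which 2 were non-targeting (control) and 2 were directed against ERH. All cultures were selected with puromycin and sorted on day 5 for the vector's fluorescent marker, and 400 ng of total RNA with reference small RNAs were used, of which 100 ng went into a library. The 4 conditions are therefore WT clones with control shRNAs, WT clones with ERH shRNAs, deletion clones with control shRNAs and deletion clones with ERH shRNAs. The clone was the replicate, and a clone's counts with both vectors of an arm were added up, giving 16 sums. The effect of the ERH shRNAs on ERH itself was not measured by this table.

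Most miRNAs are made in 2 cuts. The Microprocessor, a complex of the nuclease DROSHA and its RNA-binding partner DGCR8, releases a hairpin from a long primary transcript in the nucleus, and DICER then cuts the hairpin to a short duplex, of which a strand is loaded into an Argonaute protein. Bases 2 to 8 of the loaded strand, its seed, pair with target mRNAs. ERH is a small nuclear protein that binds the N-terminal part of DGCR8 and is known to help the Microprocessor cut poor hairpins that lie beside a good one in the same transcript. Many hairpins with high numbers were catalogued from deep sequencing, and several are known to overlap other small RNAs or repeats.

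The mature sequences of 46 of the 47 members were found in the RefSeq table (GRCh38.p14). They are printed 5′ to 3′ with the seed in capitals, and they show which rows share a seed and which are nearly the same RNA. Among the members, 4 pairs of rows shared a seed.
hsa-miR-1255a: aGGAUGAGcaaagaaaguagauu
hsa-miR-1255b-5p: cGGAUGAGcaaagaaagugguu
hsa-miR-1260a: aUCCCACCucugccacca
hsa-miR-1260b: aUCCCACCacugccaccau
hsa-miR-1268a: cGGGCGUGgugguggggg
hsa-miR-1268b: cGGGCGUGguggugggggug
hsa-miR-1269a: cUGGACUGagccgugcuacugg
hsa-miR-1269b: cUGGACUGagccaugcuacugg

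Counted from 1 at the 5′ end, miR-1255a and miR-1255b-5p differ at A1C, A19G and A21U, and miR-1269a and miR-1269b differ at G13A. miR-1260a and miR-1260b differ only at U9A over their 18 shared positions. miR-1268a and miR-1268b do not differ over theirs. In the counts, mir-1260a stood at 0.793 to 0.926 of mir-1260b in the 32 libraries (r of 0.997), and mir-1268a at 0.867 to 1.02 of mir-1268b (r of 0.998). The rows of each of these 2 pairs rose and fell together and may share reads, since how reads were assigned is not given in the sources used here. Their split is uncertain. Each pair may therefore stand for only 1 RNA, while counts of members below take both of its rows unless stated otherwise. The mir-1255 and mir-1269 pairs did vary against each other, with mir-1255a at 3.45 to 30.6 times mir-1255b. The seed UUGGCAC of miR-1271-5p is also that of miR-96-5p, which is not a member.

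The members with the largest differences, described below, have these mature sequences. They were chosen for their change, and none of them shares a seed with another member whose sequence was used.
hsa-miR-1285-3p: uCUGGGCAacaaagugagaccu
hsa-miR-1276: uAAAGAGCccuguggagaca
hsa-miR-1256: aGGCAUUGacuucucacuagcu
hsa-miR-1295a: uUAGGCCGcagaucuggguga
hsa-miR-1278: uAGUACUGugcauaucaucuau
hsa-miR-1294: uGUGAGGUuggcauuguugucu
hsa-miR-1252-5p: aGAAGGAAauugaauucauuua
hsa-miR-1304-5p: uUUGAGGCuacagugagaugug
hsa-miR-1843: uAUGGAGGucucugucuggc
hsa-miR-1246: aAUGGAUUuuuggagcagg

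These miRNAs were a small part of the small RNA. Libraries held 1318923 to 6222790 miRNA counts, of which 10315 to 39256 fell on the 47 rows, a share of 0.462% to 0.929%. Their summed level was 7639 ± 1485 CPM (counts scaled to library size with TMM factors, SD, n = 4) in WT control clones and 7229 ± 1017 with ERH shRNAs. In deletion clones it was 6839 ± 225 with control and 7007 ± 274 with ERH shRNAs, within the spread of the WT clones. The 5 most abundant members supplied 56.5% of the member counts. In pools of cells like these, fewer cells that hold an RNA and less RNA per cell cannot be told apart. As a check on the cell type, 11 rows that mark liver, blood, muscle, neurons or mesenchyme summed to 6176 to 10861 CPM in WT control clones, 4367 to 8866 in WT clones with ERH shRNAs, 3836 to 11713 in deletion control clones and 3246 to 8734 in deletion clones with ERH shRNAs. These ranges overlapped. The row mir-9 led the list with a mean of 14497 counts, so the sums mainly describe mir-9. Next came mir-142, with a mean of 1033 and a maximum of 8625 counts, and mir-122, with 671 and 1855. The maximum of mir-223 was 1081 counts. These rows were above 0 in every library, whereas mir-206 was at 0 in 23 libraries, and mir-208a in all 32. Counts of single rows are not scaled to library size here. Of 9 marker rows tested, 4 fell and 0 rose with knockdown over all clones (median log2 fold change -0.39), and of 8 tested for the deletion 1 was higher and 0 lower. The part of these rows in the members' results was not tested. Kidney identity itself was not checked with a marker.

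The most abundant member was mir-1307, whose hairpin overlaps an exon of ATP5MD (chromosome 10, 103394253 to 103394401, minus strand, GRCh38). Its level per clone was 1259, 1603, 1609 and 1333 CPM in WT clones 52, 55, 57 and 67 with control shRNAs, an order kept in all lists below, and 1188, 1321, 1412 and 1122 with ERH shRNAs. Deletion clones 30, 34, 42 and 43 had 1286.05, 1365, 862 and 1714 CPM with control and 1281, 1101, 968 and 1412 with ERH shRNAs. All groups overlapped, and no test was passed. mir-1277, in an intron of WDR44, was highest in WT clone 55 in both arms. WT clone 55 had 3489 CPM with control and 2583 with ERH shRNAs, while the other WT clones lay at 509 to 928 and 519 to 1094. Deletion clones lay at 586 to 1056 and 604 to 750.

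mir-1271, in an intron of ARL10 and with the seed of miR-96, averaged 679 ± 218 and 779 ± 236 CPM (SD, n = 4) in WT clones with control and ERH shRNAs, and 718 ± 73.2 and 849 ± 195 in deletion clones. The row above it in rank, mir-1277, had a wider spread between WT control clones (SD of 1426 CPM) than its distance from mir-1271, and without its high clone 55 its control values (509 to 928 CPM) lay inside those of mir-1271 (480 to 991 CPM). mir-1269b averaged 640 ± 112 and 539 ± 118 CPM in WT clones and 493 ± 222 and 419 ± 186 in deletion clones. None of these passed a test between conditions, so the 4 rows at the top of the order showed no called change. mir-1304, next in the order, did.

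**Figure D1:**
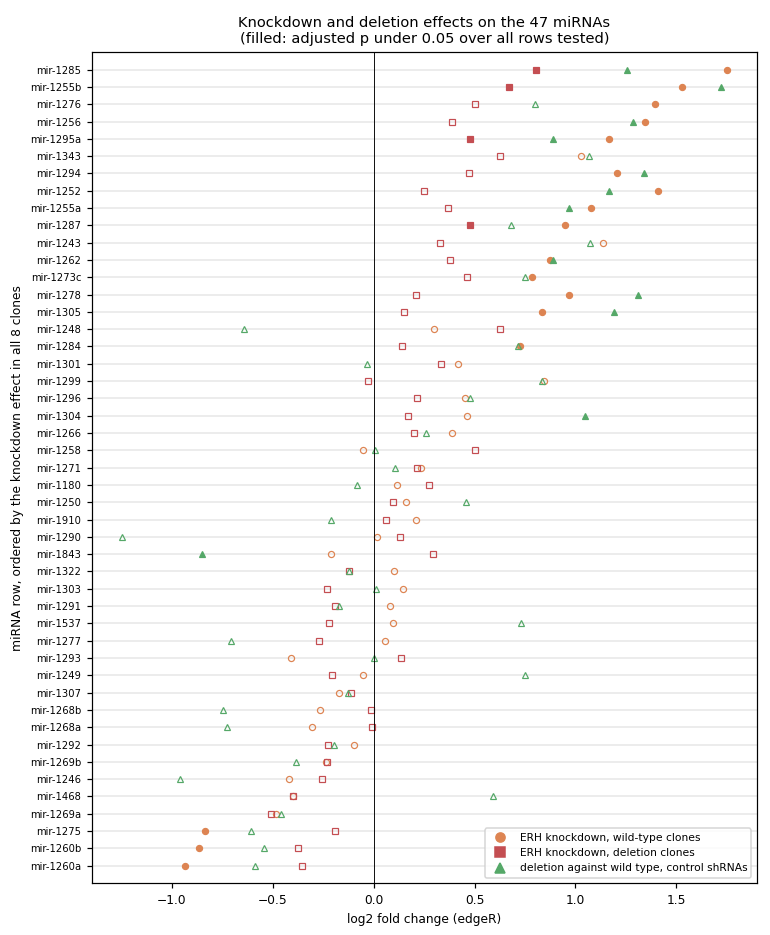
Log2 fold changes (edgeR) of the 47 miRNAs for ERH knockdown in WT clones (circles), ERH knockdown in deletion clones (squares) and deletion under control shRNAs (triangles), filled where the adjusted p was under 0.05. The circles and triangles share the WT control clones. Filled symbols are mostly on the right, from mir-1285 at the top to mir-1304, and mir-1260a, mir-1260b, mir-1275 (circles) and mir-1843 (triangle) are filled on the left.

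The effect of ERH knockdown was measured within each of the 8 clones. Of the 47 members, 16 rose and 4 fell at an adjusted p under 0.05, by edgeR's quasi-likelihood test with the clone as a block and Benjamini-Hochberg adjustment over all 667 rows tested. Among all rows 36.6% passed, 20.1% higher and 16.5% lower. Rows with few counts are part of that share. Of the 430 other rows with a mean of at least 10 counts, 47.4% passed, beside 42.6% of the members. The median log2 fold change was 0.21 over the members and 0.06 over all rows. The knockdown sums were higher than the control sums in all 8 clones for 11 members and lower in all 8 for 0, where the shares over all rows were 11.1% and 9.6%. With mir-1260a and mir-1260b taken as 1 RNA, the lower side held 3. The pairing by clone mattered: without the block, 2 members passed, mir-1285 and mir-1295a. Without clone 55 the count was 13, and 12 of the 20 calls were kept whichever clone was left out.

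mir-1285 rose most. This row covers 2 annotated hairpins with the same mature strand, whose reads were not told apart. MIR1285-1 lies in an intron of KRIT1 on chromosome 7 (92204015 to 92204098, minus strand). MIR1285-2 lies outside annotated genes on chromosome 2 (70252918 to 70253005, minus strand). In WT clones the row was at 17.0, 14.0, 18.9 and 28.9 CPM with control and 76.7, 61.0, 59.8 and 56.9 CPM with ERH shRNAs. In deletion clones it was at 21.6, 48.3, 49.4 and 63.6 and then 60.1, 67.0, 62.0 and 128. It was higher with ERH shRNAs in every clone, and in WT clones the arms did not overlap. Its fitted log2 fold change was 1.25 ± 0.19 (SE, edgeR adjusted p = 3.31e-05), 2.38-fold. With single clones left out it stayed between 1.13 and 1.40.

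mir-1255b, also a row of 2 annotated hairpins, rose in all 8 clones. Its hairpins lie in an intron of DCAF6 on chromosome 1 (167998660 to 167998726, plus strand) and outside genes on chromosome 4 (36426366 to 36426428, minus strand). WT clones went from 5.49, 4.03, 6.67 and 6.73 CPM to 15.1, 15.3, 14.6 and 19.7. Deletion clones went from 20.8, 26.3, 9.83 and 18.1 to 25.3, 38.6, 20.9 and 32.6. The fitted log2 fold change was 1.05 ± 0.20 (SE, edgeR adjusted p = 0.000379). Its seed partner mir-1255a, from an intron of PPP3CA on chromosome 4 (101330302 to 101330414, minus strand), rose too. The WT clones of mir-1255a stood at 63.2, 79.5, 50.8 and 78.0 CPM and then at 132, 159, 121 and 146, with no overlap, and its log2 fold change over all clones was 0.71 ± 0.14 (SE, adjusted p = 0.000638).

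Further members followed. mir-1276, in an intron of KLHL25, went from 5.49, 2.69, 12.6 and 11.2 to 27.3, 11.2, 21.4 and 17.1 CPM in WT clones and from 9.81, 15.1, 17.7 and 11.8 to 13.6, 19.1, 25.3 and 19.2 in deletion clones. It was higher in every clone, although the arms overlapped, and its fitted log2 fold change was 0.90 ± 0.22 (SE, edgeR adjusted p = 0.0036). mir-1256, in an intron of EIF4G3, went from 8.74, 9.40, 6.30 and 11.2 to 16.8, 19.0, 21.9 and 33.2 CPM in WT clones, without overlap. In deletion clones it went from 17.2, 19.8, 23.0 and 25.9 to 21.9, 28.4, 38.7 and 25.1, a rise in 3 of the 4. Its fitted log2 fold change was 0.82 ± 0.20 (SE, edgeR adjusted p = 0.00302). mir-1295a lies antisense to the hairpin MIR1295B, and whether counting used the strand is not given in the sources used here. It went from 29, 26.3, 41.2 and 31.7 to 80.1, 89.9, 74.3 and 44.1 CPM in WT clones, and from 54.3, 78.1, 58.6 and 45.1 to 87.5, 92.5, 78.9 and 67.1 in deletion clones. It was higher in all 8 clones (log2 fold change 0.80 ± 0.17, SE, adjusted p = 0.000939).

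Other members rose by less. mir-1287, which overlaps an exon of PYROXD2, rose in all 8 clones by 0.70 ± 0.13 on the log2 scale (SE, adjusted p = 0.000234 by edgeR). WT clone 57 was low for it in both arms, at 34.5 and 72.2 CPM, against 127 to 153 and 216 to 299 in the other WT clones. mir-1252, mir-1262 and mir-1273c, in introns of SYT1, WLS and TIAM2, also rose in all 8 clones, by 0.78, 0.61 and 0.61. mir-1294, in an intron of GALNT10, rose by 0.78 in all 8, with an adjusted p of 0.0153 that became 0.0501 without clone 57. mir-1278, in an intron of CDC73, rose by 0.56 and lost the call without clone 55, 57 or 67.

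The other 4 calls on the higher side were near the threshold. mir-1301 rose by 0.37, mir-1304 by 0.31, mir-1305 by 0.47 and mir-1343 by 0.80, with adjusted p-values of 0.0327, 0.0428, 0.042 and 0.0496 by edgeR. For mir-1301, ERH shRNA 1 gave 0.72 and ERH shRNA 2 gave 0.17, each against the control of the same number. The control vectors also differed for mir-1301, by 0.49 for control shRNA 2 against control shRNA 1 (DESeq2 adjusted p = 0.00826). mir-1343 was the least abundant member, at 1.25, 2.95, 2.97 and 0.842 CPM in WT control clones and 5.11, 4.55, 2.31 and 3.56 with ERH shRNAs. In deletion clones mir-1343 was at 1.40, 8.06, 3.35 and 3.65 and then 2.71, 9.47, 5.07 and 6.89. Leaving out any clone but 57 ended its call, at log2 fold changes of 0.65 to 0.92 over the 8 such fits. The calls of mir-1301, mir-1304 and mir-1305 were lost in 2, 3 and 5 such fits, clone 55 among them each time.

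Among the members that fell, the mir-1260 pair has a mature sequence that closely resembles the 3′ end of a leucine tRNA with its CCA tail. Both hairpins lie antisense to exons, mir-1260a to NGB on chromosome 14 and mir-1260b to MAML2 on chromosome 11. mir-1260b was at 325, 597, 972 and 541 CPM in WT control clones and 272, 435, 398 and 180.6 with ERH shRNAs. Deletion clones had 264, 355, 605 and 415 and then 350, 224, 383 and 284. It was lower in 7 of 8 clones, clone 30 being the exception, and the arms overlapped. Its fitted log2 fold change was -0.63 ± 0.16 (SE, edgeR adjusted p = 0.00446), and that of mir-1260a, whose counts ran together with it, was -0.65 ± 0.16 (adjusted p = 0.00386).

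mir-1246, which resembles a fragment of the U2 spliceosomal RNA, was at 112, 276, 430 and 180 CPM in WT control clones and 89.1, 248, 327 and 95.1 with ERH shRNAs. Deletion clones had 89.1, 115, 135 and 162 and then 91.1, 84.0, 97.9 and 148. It fell by 0.35 ± 0.13 on the log2 scale (SE, adjusted p = 0.0425 by edgeR), and the vectors differed in sign: ERH shRNA 1 gave -0.73 and ERH shRNA 2 gave 0.12, each against the control of the same number. The call was lost in 7 of the 8 fits without a clone, all except that without clone 30. mir-1269a went from 14.2, 13.2, 23.4 and 18.5 to 11.9, 8.56, 12.9 and 14.7 CPM in WT clones and from 15.6, 13.1, 16.1 and 5.48 to 11.3, 6.43, 10.1 and 6.40 in deletion clones. Its fitted log2 fold change was -0.51 ± 0.20 (SE, edgeR adjusted p = 0.0475), and the call was kept only without clone 43 or 67.

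These falls depended on the scale. With counts scaled to the spike-in RNAs, the median log2 fold change of all rows moved from 0.06 to 0.52, and 24 members were higher and 0 lower. With total miRNA counts as the scale it was 0.33, and 22 were higher and 0 lower. On the spike-in scale mir-1260a and mir-1260b changed by -0.19 and -0.17, mir-1269a by -0.04 and mir-1246 by 0.11, so that mir-1246 turned its direction. On the total-count scale the same 4 stood at -0.38, -0.36, -0.23 and -0.08. Directions here are therefore relative to the TMM scale. Of the 20 calls, 16 were kept under each of these scales.

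Both ERH vectors can be set against separate controls, although in the same clones. With ERH shRNA 1 against control shRNA 1, 13 members passed, 10 higher and 3 lower. With ERH shRNA 2 against control shRNA 2, 13 passed, 11 higher and 2 lower. The rows mir-1260a and mir-1260b, whose counts ran together, were lower with both vectors and were the only lower rows with shRNA 2. The effects had the same sign for 35 of 47 members, with a Pearson r of 0.67 and a Spearman rho of 0.70 across miRNAs, which are not independent replicates and share the clones. mir-1285 changed by 1.59 and 1.01, mir-1255b by 1.28 and 1.00, and mir-1276 by 1.29 and 0.55. mir-1258, in an intron of ZNF385B, changed by -0.24 and 1.25, with an adjusted p of 0.0715 for the latter. The control vectors themselves were compared as a background: 0 of 47 members and 0.0% of 571 rows passed (edgeR), with 5 members under an unadjusted p of 0.05. DESeq2 called 1 member there, mir-1301.

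In WT clones alone, 17 members passed, 14 higher and 3 lower, against 31.3% of 613 rows (20.9% higher and 10.4% lower). The 3 lower rows include mir-1260a and mir-1260b, whose counts ran together. Of the 430 other rows with a mean of at least 10 counts, 38.6% passed, beside 36.2% of the members. mir-1285 rose 3.36-fold, mir-1255b 2.88-fold, mir-1252 2.66-fold, mir-1276 2.63-fold and mir-1256 2.54-fold. mir-1284, in an intron of FOXP1, was called here (0.72, adjusted p = 0.042 by edgeR) and not over all clones. That call was lost with DESeq2 (0.60), without the block, with either vector alone, without clone 52, 55 or 57, and with a GC correction, which moved it to 0.0039. mir-1275, outside annotated genes, fell from 19.0, 11.8, 55.2 and 18.8 to 13.4, 11.8, 14.5 and 10.3 CPM (adjusted p = 0.042). Its log2 fold change of -0.84 became -0.45 without clone 57, the clone with the high control value. Without clone 57 the count of members was 10. On the spike-in scale and on the total-count scale 20 were higher and 0 lower. With ERH shRNA 2 alone 1 member passed, mir-1255a, and without the block 7 did.

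In deletion clones 10.3% of 633 rows passed (4.27% higher), and 14.0% of the 430 other rows with a mean of at least 10 counts. Among the members 4 passed (8.51%) and all 4 rose. These were mir-1285 by 0.80 ± 0.18, mir-1255b by 0.67 ± 0.18, mir-1287 by 0.48 ± 0.12 and mir-1295a by 0.48 ± 0.13 on the log2 scale (SE, adjusted p of 0.0215, 0.0412, 0.0277 and 0.0412 by edgeR). Each was higher in 4 of 4 clones. The count moved with the clones left out: 10 without clone 34, 1 without clone 42 or clone 43 (mir-1285 in each), and without clone 30 it was 2, mir-1260a and mir-1260b, which were lower. mir-1285 without clone 30 stood at 0.61. With ERH shRNA 2 alone and without the block, 0 passed, and with scaling to total counts 13 did.

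Whether knockdown acted differently in the genotypes was tested by the interaction of genotype and shRNA arm. 0 members and 0.0% of 667 rows passed (edgeR), while 9 members and 127 rows had an unadjusted p under 0.05. The lowest adjusted p-values were those of mir-1252 (0.105), mir-1255a (0.15) and mir-1256 (0.18). mir-1252 went from 6.74, 6.45, 9.27 and 10.7 to 14.6, 19.5, 22.5 and 30.8 CPM in WT clones and from 23.2, 16.8, 15 and 18.3 to 25.8, 19.8, 23.3 and 18.5 in deletion clones. The interaction was -1.09 ± 0.30 (SE), that is a smaller rise where the site was missing, and it passed in 6 of the alternative fits: without clone 52 (-1.18, adjusted p = 0.0418), with DESeq2, with total miRNA scaling, with a mean of at least 30 counts, with each library as a sample and with shRNA 1 only. mir-1255a passed in 3 of these, those with total scaling, the mean of at least 30 counts and each library as a sample. A smaller effect of knockdown in deletion clones is thus not shown for any member in the fit as designed.

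Removal of the DGCR8 segment was compared with WT under control shRNAs, 4 clones against 4. 12 members passed, 11 higher and 1 lower in deletion clones, against 25.9% of 536 rows (18.8% higher and 7.09% lower). Of the 424 other rows with a mean of at least 10 counts, 29.7% passed, beside 25.5% of the members. The member median was 0.26 and the median of all rows -0.03. Deletion and WT clones did not overlap for 9 members with higher and 1 with lower values, where the shares over all rows were 19.0% and 10.3%. This comparison and the knockdown in WT clones share the WT control libraries, so a shared direction is no separate evidence. Of the 12 calls, 6 were kept whichever clone was left out: mir-1255a, mir-1255b, mir-1256, mir-1278, mir-1304 and mir-1305. Without clone 34 the count was 7.

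mir-1304 was the most abundant member that changed. It overlaps an exon of TAF1D, a host of snoRNAs (chromosome 11, 93733674 to 93733764, minus strand). WT control clones had 234, 284, 271 and 301 CPM and deletion control clones 603, 590, 520 and 523, a difference of 1.05 ± 0.20 (SE, adjusted p = 0.00796 by edgeR), 2.07-fold. The genotypes lay apart with no overlap. With ERH shRNAs mir-1304 was at 413, 426, 311 and 330 in WT clones and 704, 638, 573 and 613 in deletion clones, again with no overlap. The genotype difference under knockdown was 0.80 ± 0.18, with an adjusted p of 0.0877, the lowest of any member in that comparison. Within-clone knockdown moved it by 0.46 in WT and 0.17 in deletion clones, neither of which passed.

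mir-1255b differed most between genotypes, by 1.72 ± 0.37 (SE, adjusted p = 0.00922 by edgeR), 3.30-fold. The WT values of 4.03 to 6.73 CPM all lay below the deletion values of 9.83 to 26.3. mir-1255a differed by 0.97 ± 0.25 (adjusted p = 0.0153), with WT values up to 79.5 and deletion values of 134, 136, 126 and 132 CPM. mir-1278 was at 21.0, 28.5, 13 and 15.1 in WT and 55.3, 54.7, 37.8 and 45.5 CPM in deletion clones, with no overlap and a difference of 1.31 ± 0.32 (adjusted p = 0.0128). mir-1256 differed by 1.29 ± 0.32 (adjusted p = 0.0128), from at most 11.2 CPM in WT to at least 17.2 CPM in deletion clones.

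mir-1305, in an intron of TENM3, was at 17.2, 18.5, 19.3 and 19.4 in WT and 31.0, 35.9, 38.9 and 60.2 CPM in deletion clones, and differed by 1.19 ± 0.31 (SE, adjusted p = 0.0164 by edgeR). mir-1294 was at 4.74, 5.10, 1.85 and 2.52 in WT and 8.01, 7.53, 11.8 and 9.29 CPM in deletion clones, and differed by 1.34 ± 0.41 (adjusted p = 0.0337). Neither overlapped between the genotypes. The call of mir-1294 was lost without clone 34, 42, 43, 57 or 67, at log2 differences of 1.2 to 1.53 over all 8 such fits. mir-1285 differed by 1.26 ± 0.38 (adjusted p = 0.0297), with deletion clone 30 at 21.6 CPM inside the WT range, and its call was kept only without clone 30 or 67. mir-1252 (1.17), mir-1295a (0.89) and mir-1262 (0.89) completed the higher side, and lost the call in 2, 5 and 6 of the fits without a clone, clone 52 among them each time.

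mir-1843 was the member that was lower in deletion clones. It was at 75.7, 69.0, 94.9 and 113 in WT and 49.8, 51.3, 59.9 and 33.2 CPM in deletion clones, which did not overlap, and differed by -0.85 ± 0.27 (SE, adjusted p = 0.0381 by edgeR). Leaving out clone 30, 34, 43, 52, 57 or 67 ended the call, at -0.99 to -0.67 over the 8 fits. It had no hairpin in the GENCODE 29 annotation. Under other scales the balance moved: the median of all rows went from -0.03 to 0.42 with spike-in and 0.39 with total-count scaling, where 14 and 16 members were higher and 0 lower. mir-1843 was then at -0.37 and -0.42.

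With ERH knocked down, the genotypes were compared again. 0 members and 0.0% of 569 rows passed (edgeR), while 6 members and 87 rows had an unadjusted p under 0.05, and DESeq2 called 1 member, mir-1304. The deletion clones lay above the WT clones without overlap for 5 members, mir-1255a, mir-1255b, mir-1278, mir-1294 and mir-1304 (10.6% of members, with 8.26% of all rows), and below them for 0 (with 2.64% of all rows). mir-1255b was at 14.6 to 19.7 CPM in WT and 20.9 to 38.6 in deletion clones, a difference of 0.89 ± 0.29 (adjusted p = 0.23). mir-1843 overlapped, at 58.9 to 88.9 and 48.5 to 69.5 CPM. No test of the difference between these genotype effects other than the interaction above was made.

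Members that overlap another RNA or a repeat were a list of their own: mir-1246, mir-1248, mir-1260a, mir-1260b, mir-1268a, mir-1268b, mir-1273c, mir-1285 and mir-1291. Of these 9 rows, 2 rose and 3 fell with knockdown over all clones, where 20.1% of all rows were higher and 16.5% lower. The 3 that fell include mir-1260a and mir-1260b, whose counts ran together. 1 row, mir-1285, differed between genotypes under control shRNAs, where 25.9% of all rows did. mir-1248 lies within the snoRNA SNORA81 in EIF4A2, and was at 85.1, 73.9, 519 and 178 CPM in WT control clones and 105, 218, 310 and 185 with ERH shRNAs. Deletion clones had 215, 117, 115 and 94.6 and then 293, 323, 90.4 and 180. Clone 57 stood apart. No comparison of mir-1248 passed as designed, while with no filter on low counts its knockdown effect in deletion clones did (0.61, edgeR adjusted p = 0.0015). mir-1291, within SNORA2C in KANSL2, lay between 2.87 and 9.98 CPM in all 16 sums without a called change. mir-1268b was at 36.5, 17.5, 139 and 81.6 in WT control clones, 39.0, 33.2, 62.0 and 45.8 with ERH shRNAs, 48.6, 33.8, 50.7 and 27.1 in deletion control clones and 43.6, 79.99, 19.1 and 30.5 CPM with both. The high clone was again 57, and all groups overlapped. mir-1273c was at 19.7, 10.2, 27.8 and 20.2 and then 41.6, 19.0, 41.5 and 28.8 CPM in WT clones, and at 23.6, 32.2, 31.7 and 40.8 and then 37.1, 33.3, 53.9 and 54.9 in deletion clones, a rise in each clone.

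Position gave a further description of the members. Hairpins were found in GENCODE release 29 for 46 of them, of which 28 lay in introns on the same strand, 4 overlapped exons, 4 had a gene on the other strand only, 2 lay in snoRNAs, 6 had no host and 2 had several loci. The intronic hairpins had a median knockdown effect of 0.30, with 11 higher and 0 lower, and a median deletion effect of 0.65, with 7 higher. The 6 without a host had medians of -0.26 and -0.53, with 2 lower and 0 higher for knockdown. The background shares above apply to these counts, and the classes were not tested against each other.

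Nearly all members were solitary hairpins. The rule itself left out 7 names, 4 of them above the count minimum, so the share is in part set by the choice of members and is a description. 1 of 46, or 2.17%, had another hairpin with at least 10 mean counts within 10 kb on its strand, whereas 101 of the 425 other rows of that abundance did (23.8%). The exception was mir-1250, in an intron of AATK, 7247 bp from mir-338. It was at 13.7, 6.18, 15.9 and 19.6 and then 19.0, 4.01, 15.7 and 27.3 CPM in WT clones, and at 23.8, 22.8, 18.1 and 11.3 and then 30.3, 22.2, 18.4 and 11.8 in deletion clones, with no called change. Among the other abundant rows without a neighbour, 100 of 324 rose and 45 fell with knockdown (median 0.17), and with a neighbour 1 of 101 rose and 54 fell (median -0.33). For the deletion the counts were 86 higher and 17 lower of 321 (median 0.26), and 1 and 20 of 98 (median -0.44). The members' medians, 0.21 and 0.26, lay beside those of the solitary rows. Neighbouring hairpins can share a transcript, so their rows are not independent. The part of a neighbour in these effects was not tested.

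Base composition moved with the effects in some comparisons. Hairpins of the 11 members higher in deletion clones had a median GC content of 39.9% (26.2% to 52.7%), and the 35 not called a median of 51.7%. Across the 46 hairpins the Spearman rho of effect and GC content was -0.30 for knockdown and -0.30 for the deletion, and across all rows tested -0.16 and -0.33, as a description of miRNAs that share libraries. For knockdown in deletion clones rho was -0.09 over the members and 0.0049 over all rows, and for the deletion under ERH shRNAs -0.12 and -0.19. With a GC correction, 16 of 20 knockdown calls and 7 of 12 deletion calls were kept, and the splits became 13 higher and 5 lower, and 6 and 3. In WT clones the split became 11 and 5, and mir-1252 went from 1.41 to 0.59 and lost the call, as did mir-1262, mir-1278, mir-1284 and mir-1305. mir-1252, whose hairpin has 26.2% GC, went from 1.17 to -0.01 for the deletion under this correction, and mir-1255a, mir-1262, mir-1278 and mir-1305 also lost the deletion call. mir-1255b, mir-1256, mir-1285, mir-1294, mir-1295a and mir-1304 kept it. mir-1843 is counted among the 7 kept, but it had no annotated hairpin and so no GC content. Its own value was therefore not corrected, and its call says nothing on base composition. The part of base composition in these differences was not tested further.

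Reference hairpins gave a scale for these changes. Of 8 hairpins reported to need ERH, chosen with these results known, 0 rose and 6 fell with knockdown, with a median of -1.12, and 4 fell with the deletion (median -0.62). Of 4 hairpins that bypass the Microprocessor, 0 were called, with medians of 0.17 and -0.43. Mirtrons are introns that fold into hairpins and skip DROSHA. The 9 rows listed as mirtrons or other DROSHA-independent hairpins in this range had means of at most 2.5 counts, and none was tested. That list did not hold mir-1226, which was left out of the members by name and is among the 4 hairpins above.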

How the data were processed

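The deposited table held whole-number read counts per miRNA precursor name and for 4 spike-in RNAs, 1 column per library, per the file headers. Both arms of a hairpin share a row. SAMtools is named in the submitters' processing notes, and the aligner, the annotation, the genome build and any use of molecular identifiers are not given in the sources used here. Without identifiers, amplification copies would be among the counts. The least different of 48 pairs of libraries from the same group had a chi-square of 90.7 per degree of freedom, and none was counted as a repeat deposit. 0 columns lacked a sample.

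Counts of both vectors of an arm were summed per clone. edgeR 4.0.16 in R 4.3.3 (filterByExpr, TMM, quasi-likelihood test) was run over all rows, with Benjamini-Hochberg adjusted p under 0.05 as the threshold and a prior count of 2. Knockdown and interaction were blocked by clone, and genotypes were compared as 4 against 4 clones. The pairing comes from the labels, and deviations of a clone's arms from their group means correlated at r of 0.348 to 0.628 in the 8 clones. All 47 members passed the filter in each comparison. The steps were tested on simulated data.

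Members in each direction with the largest effects (up to 6 for knockdown and for deletion), the 5 most abundant, those on the list overlapping other RNAs and those with a neighbour were given per clone, and further members were named after their values were seen. Members and lists were chosen with earlier results of these data known. Hairpins and hosts came from GENCODE 29 (GRCh38), mature sequences from RefSeq (GRCh38.p14); neither is stated to be the build behind the counts. Alternatives were DESeq2 1.42.0, spike-in or total scaling, no filter or a mean of 30 counts, a GC correction (loess, span 0.5), each library as a sample, single vectors, no block, and leaving out each clone. p-values measure the spread between clones of 1 line.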

Additional observations from a re-analysis of the deposited data

Results flagged for a closer look

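A single clone lay far from the other 3 of its condition (Dixon's test) in 11 of the 188 sets of 4 clones examined, and chance alone gives about 1 in 20. Among WT clones with control shRNAs, clone 57 was low for mir-1287 (34.5 CPM) and for mir-1322 (1.85 CPM). Among WT clones with ERH shRNAs, clone 67 was high for mir-1255b (19.7 CPM) and clone 55 for mir-1468 (20.3 CPM). Among deletion clones with control shRNAs, clone 30 was low for mir-1293 (7.61 CPM) and high for mir-1468 (37.6 CPM), clone 34 was high for mir-1266 (7.53 CPM), and clone 43 was low for mir-1275 (8.96 CPM). With both deletion and ERH shRNAs, clone 43 was low for mir-1278 (45.3 CPM) and high for mir-1285 (128 CPM), and clone 42 was high for mir-1303 (14.0 CPM).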

How the results depend on the processing

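Over the 53 calls of single members, 633 of 853 values under the alternatives kept direction and threshold, 217 kept direction only and 3 reversed: mir-1246 under knockdown with spike-in scaling (0.11) and with shRNA 2 only (0.12), and mir-1252 under deletion with the GC correction (-0.0054). The cause was not tested. The 20 knockdown calls became 13 with either vector alone, 2 with no replicate block and 13 to 19 without single clones. In WT clones, 17 became 1 with vector 2, 7 without the block and 10 to 17 without single clones. In deletion clones, 4 became 11 with spike-in scaling, 13 with total scaling, 10 with a mean of at least 30 counts, 7 with each library as a sample or vector 1 alone, 0 with vector 2 or without the block, and 1 to 10 without single clones. The 12 deletion calls became 2 with vector 2 and 7 to 11 without single clones. Under ERH shRNAs, 0 became 1 with DESeq2 and 3 with each library as a sample, and stayed 0 without any single clone. For the interaction, 0 became 1 with DESeq2 or vector 1 alone, 2 with total scaling or a mean of at least 30 counts, 4 with each library as a sample, and 0 to 1 without single clones. Between control vectors, 0 became 1 with DESeq2. With no replicate block, the interaction and the comparison of control vectors stayed at 0. Members at a few counts per library, such as mir-1343, limit what could be detected.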

Other observations

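WT clone 67 stood apart for mir-1299, at 0.561 CPM with control and 5.59 CPM with ERH shRNAs, against 16.9 to 33.4 and 24.8 to 41.5 CPM in the other WT clones and 26.7 to 40.0 and 27.4 to 36.7 CPM in deletion clones. WT clone 55 was high for mir-1290, at 79.0 and 77.9 CPM, where the other WT clones lay at 16.2 to 34.8 and 13 to 36.4 CPM. Clone 55 was also the clone high for mir-1277. These are values of single clones, which were kept in the comparisons and medians above. None of these rows was called in a comparison as designed.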
